A study of Caenorhabditis elegans with 51 samples.

Results

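Small RNA that came down with the Argonaute CSR-1 was compared with the small RNA of the input, gene by gene, in young adult Caenorhabditis elegans. All gene rows of the deposited table were taken, which gave 20202 genes after models sharing a symbol were reduced to 1, and 10908 of them had enough signal to be tested. Each side had 2 libraries, so 4 of the 51 libraries of the series carried the comparison. Precipitate and input came from the same strain, CSS342, which carries c-myc-CSR-1 (CSR-1 with a c-myc tag), SF-HRDE-1 (a tagged form of HRDE-1, a nuclear Argonaute) and the Cer3(red20) allele. In that allele Cer3, a retrotransposon, holds part of the oma-1 gene, and both sides shared this insert and both tags. The labels give no treatment, no age beyond young adult and no animal numbers, and they name whole young adults as the source, so every tissue could contribute. A pair of HRDE-1 small RNA immunoprecipitates (sRIP) from this strain entered the fit only to help estimate the spread between libraries.

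CSR-1 is an Argonaute of the worm germ line. It is loaded with 22G-RNAs, short antisense RNAs that begin with G and are made on mRNA templates by RNA-dependent RNA polymerase, mainly EGO-1. Its guides are known to match a large part of the genes that the germ line expresses, and it is described as protecting or tuning these transcripts. Another set of Argonautes, the WAGO proteins and HRDE-1 among them, carries 22G-RNAs against transposons, pseudogenes and silenced genes.

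The input libraries held 2728020 and 2104162 reads and the CSR-1 libraries 4992358 and 2991634, as deduced from the deposited values. Gene models took 50.5% and 52.4% of the input reads and 40.1% and 43.0% of the CSR-1 reads, so a smaller part of the CSR-1 libraries lay on the genes compared. Values are RPKM, reads scaled to the length of the gene model and the size of the library. Reads of the input pair differed by less than the sampling noise allows (chi-square over 8966 genes divided by its degrees of freedom 0.986, p = 0.83). That pair was counted as 1 sample with the mean of both. The CSR-1 pair differed by more than the sampling noise (1.06, chi-square over 7830 genes divided by its degrees of freedom, p = 1.9e-04). The HRDE-1 pair differed more, with 1.96 over 10019 genes, and the spread of both pairs stood for that of the input. The labels name no mock or untagged precipitation, so RNA held by CSR-1 and RNA that stuck to the beads cannot be told apart.

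Many genes had less small RNA in the CSR-1 precipitate than in the input, and fewer had more. Small RNA against 4019 genes was lower in CSR-1 sRIP than in the input (36.8% of those tested), and against 778 genes it was higher (7.13%). These calls needed a limma adjusted p under 0.05 and a log2 fold change of at least 1 on the log2(RPKM + 1) scale. The losses were the deeper changes: the median log2 fold change among lower genes was -2.0 (quartiles -2.52 and -1.45), and among higher genes it was 1.18 (quartiles 1.08 and 1.35). A log2 fold change of 2 or more was reached by 2015 lower genes and by 8 higher genes, and one of 3 or more by 224 lower genes and by 0 higher genes. All 778 higher genes and 3988 of the 4019 lower genes had no overlap between the CSR-1 and input values, while 33.2% of all tested genes lay above and 53.9% below the input in every pair of libraries. Without CSR-1 replicate 2, 491 genes were called higher and 3437 lower.

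The calls depend on where no change is set, because RPKM are shares of a library. The median log2 fold change over all tested genes was -0.54. With the medians of the libraries brought to a common value it was -0.08, and 2540 genes were then higher and 2969 lower, so that 46.1% of the calls were higher against 16.2% as reported. A group's median is given beside the -0.54 of all genes for that reason.

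In terms of reads, the 4019 lower genes took 48.6% and 49.3% of the gene-model reads in the input and 12.01% and 12.5% in CSR-1 sRIP. The 778 higher genes went from 4.90% and 4.64% to 13.9% and 13.8%. Genes not called made up the rest of both, with 46.1% and 45.6% in the input and 73.9% and 73.6% in the CSR-1 libraries. Most of the CSR-1 reads on gene models thus lay on genes called in neither direction. In the HRDE-1 libraries of the same strain the lower genes held 60.7% and 64.2% of gene-model reads and the higher genes 3.06% and 2.63%.

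**Figure D1:**
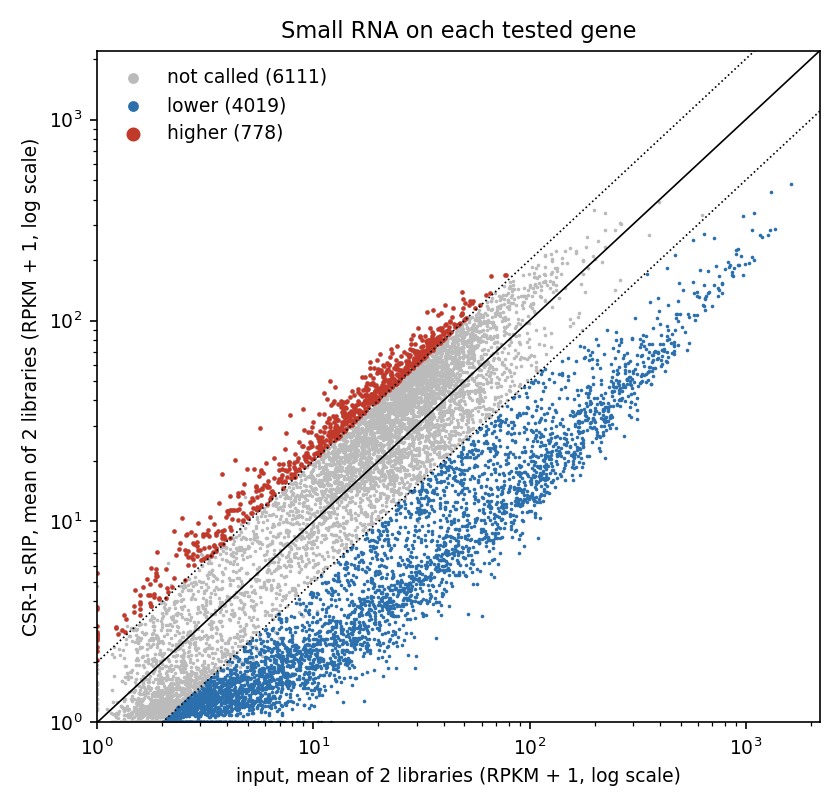
Mean RPKM + 1 of the 2 CSR-1 sRIP libraries (vertical, log scale) against that of the 2 input libraries (horizontal, log scale) for the 10908 tested genes, red where higher (778), blue where lower (4019) and grey where not called (6111). The solid line marks equal values and the dotted lines a 2-fold difference, and the blue genes form a second band under the grey one that runs up to the genes with the most input small RNA.

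The plot of CSR-1 against input showed 2 bands of genes. Among the 6501 genes with an input mean of at least 10 RPKM, 1484 (22.8%) had a log2 fold change from 0.5 to 1, the fullest interval, and 1132 (17.4%) one from 0 to 0.5. The counts then declined to 310 genes (4.77%) between -2 and -1.5 and rose again to 735 genes (11.3%) between -3 and -2.5. The upper band thus lay near a small gain and reached the size required for a call with its outer part, in which 478 genes had 1 to 1.5. The lower band was a deep loss. Of 780 genes with an input mean of 100 RPKM or more, 269 lay between -3 and -2.5 and another 226 between -2.5 and -2.

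The calls differed by the level of small RNA. Of genes whose mean over the 4 libraries was 300 RPKM or more, 72 of 75 were lower and 0 were higher. From 100 to 300 RPKM, 319 of 465 were lower (68.6%) and 4 were higher (0.860%), and the median log2 fold change of this interval was -2.25. By this mean, the gains were most frequent from 30 to 100 RPKM, with 334 of 2867 genes higher (11.7%) and 712 lower (24.8%), around a median of 0.31. From 10 to 30 RPKM, 266 of 2903 were higher (9.16%) and 765 lower (26.4%). Below that the losses led again, with 859 of 1597 genes lower from 3 to 10 RPKM (53.8%) and 957 of 1643 from 1 to 3 RPKM (58.3%).

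**Figure D2:**
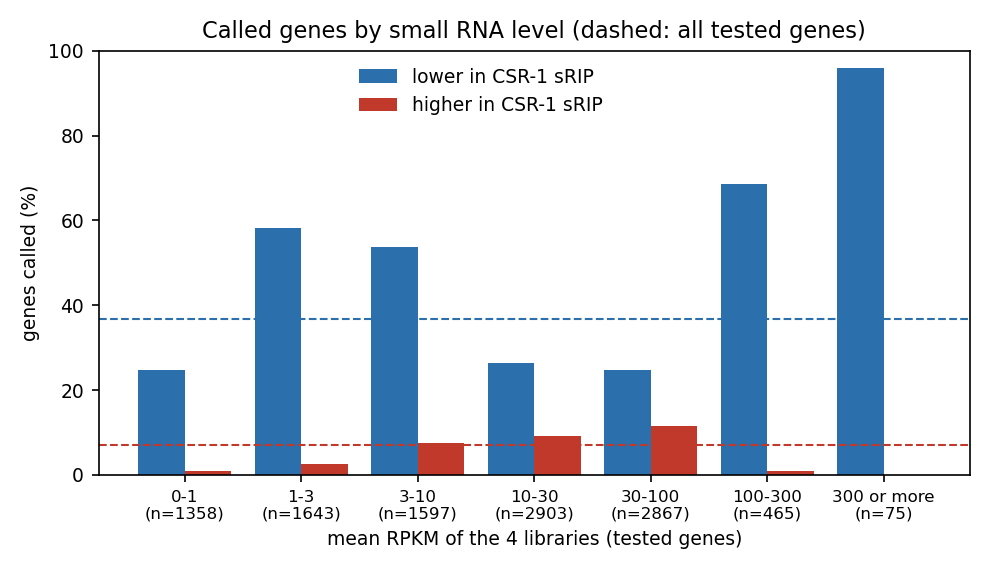
Share of tested genes called lower (blue) and higher (red) in CSR-1 sRIP by the mean RPKM of the 4 libraries, with the number of genes under each pair of bars and the shares over all tested genes as dashed lines (36.8% lower, 7.13% higher). The red bars are tallest from 30 to 100 RPKM (11.7%) and the blue bars reach 96% at 300 RPKM or more.

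Levels taken from the HRDE-1 libraries, which are no part of the contrast, gave the same order at the top. These libraries are not a neutral measure of level, since the lower genes held 60.7% and 64.2% of their gene-model reads. They also entered the filter and the spread of the fit, so the shares by this level are a description. Of 247 genes with 300 RPKM or more in HRDE-1 sRIP, 246 were lower in CSR-1 sRIP than in the input, and of 708 genes with 100 to 300 RPKM, 622 were lower. None of either set was called higher by limma. Below 100 RPKM the order differed from that by the mean of the 4 libraries. From 30 to 100 RPKM in HRDE-1 sRIP, 20 of 1704 genes were higher (1.17%) and 833 lower (48.9%). The gains were most frequent from 3 to 10 RPKM, with 282 of 2753 genes (10.2%), and from 10 to 30 RPKM, with 336 of 3332 (10.1%). The lower share was 24.5% at 10 to 30 RPKM, 33.2% at 3 to 10 RPKM and 27.3% at 1 to 3 RPKM, each under the 36.8% of all genes. Of the 100 genes richest in small RNA in the input, 99 were lower in CSR-1 sRIP and 0 higher. The top 100 genes of CSR-1 sRIP held 39 of these input genes, and were themselves called lower in 39 cases, higher in 3 and neither in 58. The highest RPKM of any gene was 1533 and 1687 in the input libraries and 417 and 534 in the CSR-1 libraries. Genes at 100 RPKM or more numbered 755 and 784 in the input and 268 and 332 in CSR-1 sRIP.

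At the low end, 328 lower genes had no read in either CSR-1 library and 14 higher genes had none in the input. A filter on low values let 103 of the lower genes in through the input alone, so these had to be lower. How they divide among the gene lists below is not given. Of the lower genes, 1381 were under 1 RPKM in both CSR-1 libraries, and of the higher genes 33 were under 1 RPKM in both input libraries. Such genes rest on few reads. Another 31 tested genes had no reads on either side and passed through the HRDE-1 libraries.

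Among the genes with the largest rises, T27A8.2 on chromosome X had 6.02 and 3.35 RPKM in the input and 31.5 and 25.1 RPKM in CSR-1 sRIP. The values of the 2 groups stood far apart, and the log2 fold change was 2.36 (SE 0.20, adjusted p = 8.7e-04). It rested on 7 and 3 reads in the input against 67 and 32 in CSR-1 sRIP. The germ granule gene meg-1, also X-linked, rose from 2.95 and 2.62 RPKM to 15.7 and 16.7 RPKM, a log2 fold change of 2.18 (SE 0.21, adjusted p = 0.0012). Its protein acts on the germ granules of the early embryo. F38A5.7, annotated as sup-36, rose by a log2 fold change of 2.22, although its input values of 5.16 and 1.49 RPKM were themselves spread. D2030.4, annotated as ndub-7, a subunit of respiratory complex I, rose from 13.2 and 8.59 to 43.4 and 55.0 RPKM. tag-150, annotated as cgef-1, an exchange factor for small GTPases, rose from 7.13 and 5.82 to 23.5 and 29.4 RPKM.

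The next genes were named for having the most small RNA among the higher genes. Those above were picked for the largest rises, so the smaller rises here say nothing about level. rme-2, the yolk receptor of oocytes, had 73.5 and 80.2 RPKM in the input and 156 and 180 RPKM in CSR-1 sRIP, a log2 fold change of 1.11 (SE 0.13, adjusted p = 0.0021). hcp-4, the worm CENP-C of the centromere, had 74.6 and 77.4 RPKM in the input and 153 and 183 RPKM in CSR-1 sRIP. Both CSR-1 libraries were above both input libraries for either gene. C15H11.9, annotated as rrsr-1 and related to a ribosome assembly factor, went from 65.0 and 66.3 to 169 and 164 RPKM. Its neighbour C15H11.8, annotated as the RNA polymerase I subunit gene rpoa-12, went from 62.0 and 67.6 to 132 and 139 RPKM. The log2 fold change of C15H11.8 was 1.05, and without input replicate 1 it was 0.99, without CSR-1 replicate 1 the adjusted p was 0.09 and without replicate 2 it was 0.1, so that no call was made. F57C9.1, the pyridoxal kinase gene pdxk-1, rose from 57.1 and 50.8 to 118.8 and 128 RPKM.

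Among lists with 8 or more tested genes, that of the eggshell and egg activation had the largest share of rises. Of its 19 tested genes, 9 rose (47.4%) and 1 fell, with a median log2 fold change of 0.81. The count of rises was 5 without CSR-1 replicate 2 and at most 8 without another library. cpg-3, which encodes an eggshell protein, had 27.3 and 27.4 RPKM in the input and 74.5 and 85.4 RPKM in CSR-1 sRIP (log2 fold change 1.51, SE 0.13, adjusted p = 8.3e-04). cpg-1, for a chondroitin proteoglycan of the eggshell, went from 20.7 and 20.3 to 45.5 and 47.3 RPKM. cpg-4 went from 33.7 and 32.7 to 73.1 and 84.8 RPKM. egg-1, for a receptor needed at fertilisation, went from 42.7 and 39.4 to 86.2 and 91.8 RPKM. In each of these 4 genes both CSR-1 libraries were above both input libraries. The exception was Y39B6A.8, annotated as cpg-23, with 2.00 and 0.742 RPKM in the input and no read in CSR-1 sRIP, whose fall was not called without input replicate 1 (log2 fold change -0.80). Of the 4 MEG family genes, meg-1 among them, 2 rose, and 1 without CSR-1 replicate 2 or either HRDE-1 library.

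Maternal RNA regulators moved less. Of 9 tested CCCH zinc finger maternal genes 2 rose, pos-1 and pie-1, which encode proteins that act in the early germ lineage. pos-1 went from 21.0 and 25.1 RPKM to 60.7 and 63.9 RPKM (log2 fold change 1.40), and pie-1 from 20.7 and 18.7 to 46.3 and 45.2 RPKM (1.17). Neither was called when CSR-1 replicate 1 was left out (adjusted p 0.061 and 0.11) or replicate 2 (0.069 and 0.11). Of 30 oocyte ribonucleoprotein genes, 4 rose and 3 fell around a median of 0.62, and 2 rose without CSR-1 replicate 2. nos-3, a Nanos relative, went from 18.5 and 20.4 to 42.2 and 44.3 RPKM. lin-41, a regulator of oocyte growth, went from 10.9 and 12.28 to 29.8 and 33.8 RPKM, and was not called without CSR-1 replicate 1 (adjusted p 0.051) or 2 (0.066). The P granule helicase genes glh-2 and glh-3 rose by 1.11 and 1.06 on the log2 scale, as 2 of the 10 P granule core genes, none of which fell.

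Meiotic genes had some rises and no falls of the size required. In the lists for pairing, the synaptonemal complex and axes, recombination and cohesin, 1 of 11, 2 of 14, 5 of 33 and 2 of 13 tested genes rose. These shares of 9.09%, 14.3%, 15.2% and 15.4% stood beside 7.13% of all genes. In these lists limma called none lower, where 36.8% of all genes were lower. The pairing count was 0 without CSR-1 replicate 2, and the synaptonemal count 1 without input replicate 2. At an unadjusted p under 0.05, 0, 0, 3 and 0 of these genes lay below the input, and 7, 9, 21 and 12 above it. With voom weights 2, 2, 7 and 3 were higher and 0 lower. Their medians were positive, at 0.62 for the synaptonemal complex and axes, 0.64 for recombination and 0.77 for cohesin, against -0.54 for all genes. com-1, which acts in trimming break ends, had 19.8 and 16.6 RPKM in the input and 40.6 and 41.5 RPKM in CSR-1 sRIP. brc-1, the worm BRCA1, went from 32.3 and 30.1 to 63.8 and 73.3 RPKM. C03D6.6, annotated as lab-1, which protects cohesion on the long arm of the meiotic chromosome, went from 33.6 and 35.4 to 82.5 and 83.9 RPKM. The cohesin subunit gene him-1 went from 28.5 and 29.1 to 61.0 and 66.6 RPKM, and tim-1 from 27.5 and 25.8 to 61.5 and 67.5 RPKM. The CSR-1 and input values of these 5 genes did not overlap.

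Dosage compensation genes, whose products act on the X in hermaphrodites together with shared condensin subunits, rose in 6 of 14 cases and fell in 1, with a median of 0.92. Without CSR-1 replicate 2 the count of rises was 3. dpy-26, a condensin subunit, had 33.0 and 33.4 RPKM in the input and 74.3 and 78.9 RPKM in CSR-1 sRIP (log2 fold change 1.18, SE 0.11, adjusted p = 0.0012). dpy-21, a histone demethylase of the same complex, went from 11.4 and 11.7 to 28.7 and 26.9 RPKM. sdc-3, which brings the complex to the X, went the other way, from 9.03 and 8.69 to 3.35 and 3.11 RPKM. With library medians centred its log2 fold change was -0.76 and it was not called.

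**Figure D3:**
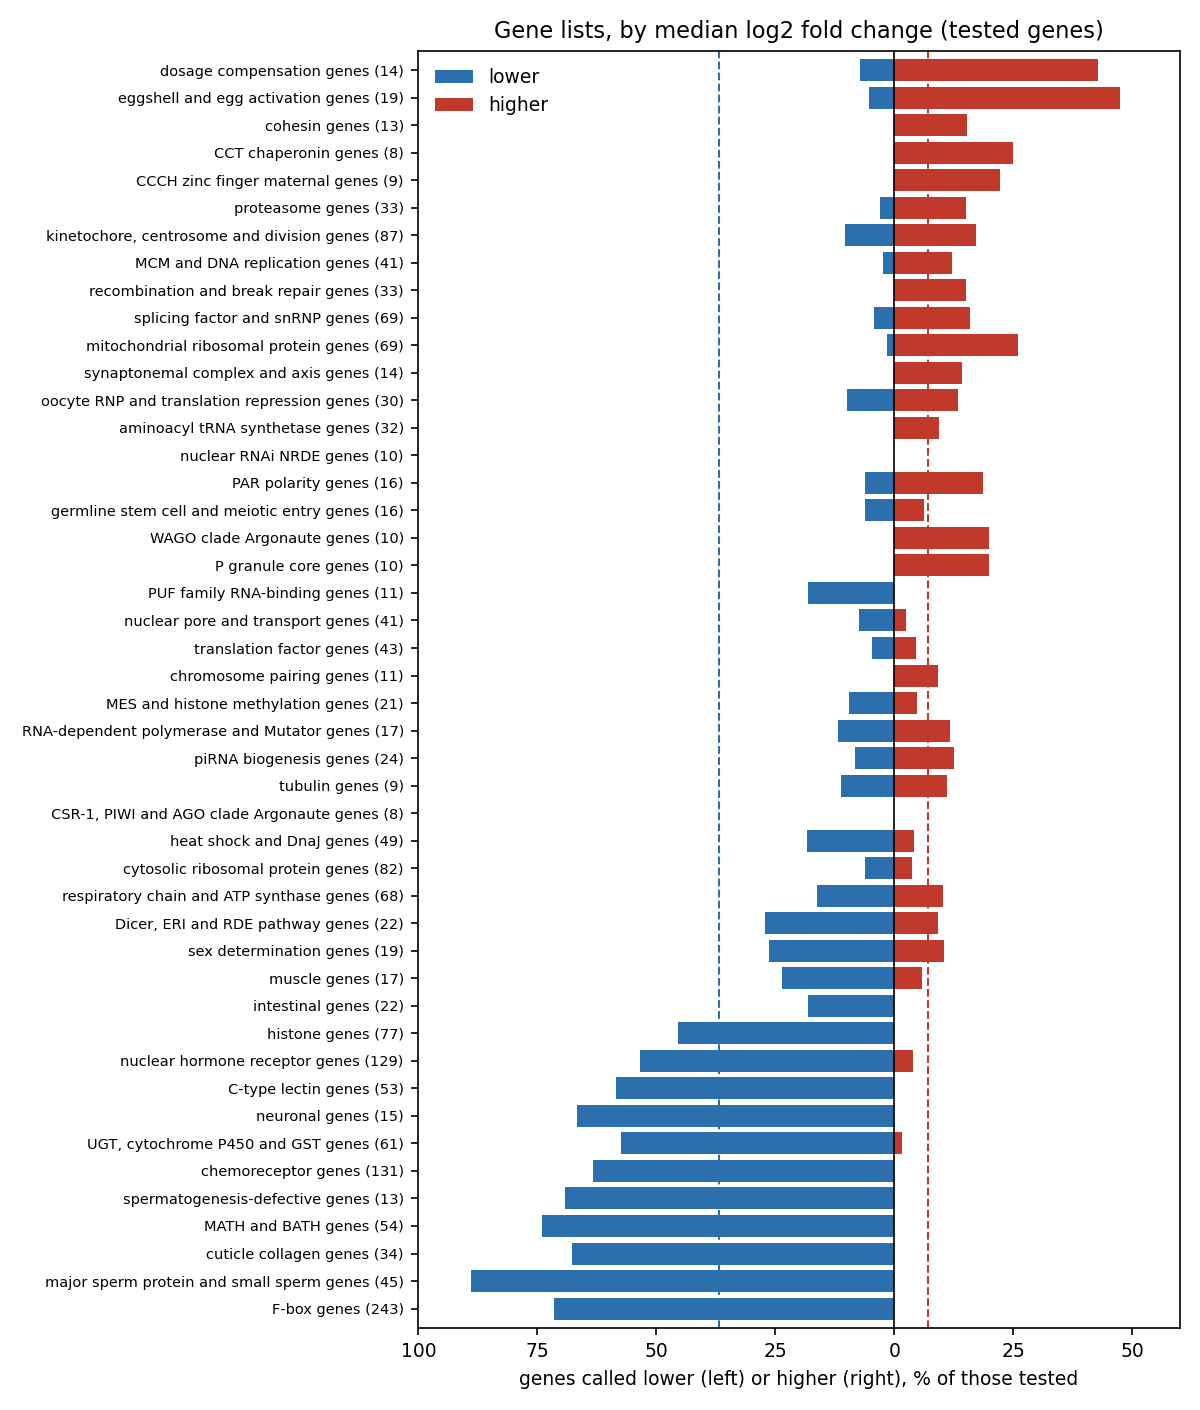
Share of tested genes called lower (blue, left) and higher (red, right) in each gene list with 8 or more tested genes, ordered by the list's median log2 fold change, with the number tested in brackets and dashed lines at the shares over all tested genes (36.8% lower, 7.13% higher). Most germline and housekeeping lists lie in the upper part with blue bars short of the dashed line, and the blue bars pass the dashed line in the lists from histone genes downward.

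The lists for cell division, DNA replication, splicing and the proteasome had medians above 0, against -0.54 for all genes. Of 87 kinetochore, centrosome and division genes, 15 rose and 9 fell (median 0.65). Those rises numbered 5 without CSR-1 replicate 2 and 23 without replicate 1, and the falls 5 without either HRDE-1 library. The falls were ZC123.4 (cdk-14), cdk-5, klp-6, klp-8 (annotated as gcc-1), klp-11, klp-12, klp-20, spd-3 and C07H6.3 (cls-1). Members were matched by gene name, which does not show that each acts in cell division. Among 41 MCM and DNA replication genes 5 rose, among 69 splicing factor genes 11 rose, and among 33 proteasome genes 5 rose, with medians of 0.65, 0.64 and 0.73, while 1, 3 and 1 fell. Without CSR-1 replicate 2 the splicing count was 5 and the proteasome count 2, and without CSR-1 replicate 1 or input replicate 2 the replication count was 8 or 9. M03C11.7, the splicing factor gene prp-3, went from 23.7 and 20.7 RPKM to 68.4 and 67.6 RPKM (log2 fold change 1.57, SE 0.10, adjusted p = 4.5e-04). rpn-8, for a proteasome lid subunit, went from 12.2 and 10.4 to 36.4 and 39.5 RPKM. Y113G7B.24, annotated as sld-5 of the GINS replication complex, went from 7.92 and 15.1 to 39.5 and 38.0 RPKM.

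Ribosomal protein genes divided by compartment. Of 69 tested mitochondrial ribosomal protein genes 18 rose and 1 fell (median 0.63), and leaving out a library gave 14 to 18 rises. K07A12.7, annotated as mrps-15, went from 23.4 and 19.1 RPKM to 57.5 and 55.4 RPKM. Of 82 cytosolic ribosomal protein genes 3 rose and 5 fell, around a median of 0.17. With CSR-1 replicate 1 or 2 left out the falls numbered 2, and without either HRDE-1 library 3. The difference between these lists was not tested. Respiratory chain genes were mixed, with 7 rises and 11 falls among 68, and their median turned from -0.09 to 0.37 with library medians centred and to 0.02 with the median ratio to input set to 1. Without either CSR-1 library 3 of them rose. ndub-7 was the largest rise among them, and F26E4.6, the cytochrome oxidase gene cox-7C, the largest fall, from 132 and 128 RPKM to 26.9 and 23.7 RPKM.

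Other lists of general cell functions had few calls and medians above that of all genes. Of 43 translation factor genes 2 rose and 2 fell (median 0.46), of 32 aminoacyl tRNA synthetase genes 3 rose (0.59), and of 41 nuclear pore and transport genes 1 rose and 3 fell (0.47). Leaving out a library gave 1 to 6 rises in the translation list, with 6 without input replicate 1, and 3 to 6 in the synthetase list, with 6 without input replicate 2 or CSR-1 replicate 1. In the nuclear pore list it gave 1 to 3, with 3 without input replicate 1 or CSR-1 replicate 1. srs-1, a seryl tRNA synthetase gene, went from 7.43 and 8.21 RPKM to 21.7 and 24.1 RPKM. Of 8 CCT chaperonin genes 2 rose (0.74), with 0 called without CSR-1 replicate 2, and of 9 tubulin genes 1 rose and 1 fell. Heat shock and DnaJ genes differed in having 9 falls and 2 rises among 49 (median 0.23). Those falls included hsp-16.48 and hsp-16.49, small heat shock genes that share 1 set of values, 22.1 and 31.9 RPKM in the input and 3.25 and 4.64 RPKM in CSR-1 sRIP. Of 21 MES and histone methylation genes 1 rose and 2 fell, of 16 PAR polarity genes 3 rose and 1 fell, of 16 stem cell and meiotic entry genes 1 rose and 1 fell, and of 19 sex determination genes 2 rose and 5 fell. The rises of the sex determination list numbered 0 without CSR-1 replicate 2 and 1 without CSR-1 replicate 1 or input replicate 2, and its falls 1 with library medians centred. The rise in the MES list was not called without a CSR-1 or HRDE-1 library, that in the tubulin list not without input replicate 2 or a CSR-1 library, and the heat shock rises numbered 6 without input replicate 2. The rises among stem cell and meiotic entry genes numbered 2 without input replicate 1.

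Small RNA against the genes of the small RNA machinery itself lay on both sides of the input. Of 8 tested genes of the CSR-1, PIWI and AGO Argonaute clades 0 were called in either direction by limma, and of 10 genes of nuclear RNAi (the NRDE list) 0 were called, although the medians of these lists were 0.31 and 0.58 against -0.54 for all genes. At an unadjusted p under 0.05, 4 and 6 of them lay above the input and 0 and 2 below, and with voom weights 1 and 0 were higher and 0 lower. In the Argonaute list 1 gene was higher without CSR-1 replicate 2, and in the NRDE list 1 without CSR-1 replicate 1. csr-1 had 114.9 and 118.8 RPKM in the input and 147 and 164 RPKM in its own precipitate. Its CSR-1 values were both above the input values, but the log2 fold change of 0.40 (SE 0.13, adjusted p = 0.041) was under the size required. hrde-1, listed under its sequence name C16C10.3, had 113 and 122 RPKM in the input and 118 and 134 RPKM in CSR-1 sRIP, which overlapped (log2 fold change 0.10, adjusted p = 0.56). oma-1, a fragment of which sits in Cer3 in this strain, had 33.1 and 30.3 RPKM in the input and 30.2 and 32.8 RPKM in CSR-1 sRIP, which overlapped (log2 fold change -0.01, adjusted p = 0.94). Reads against the inserted fragment and against the gene itself share that sequence and cannot be told apart.

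Other genes of the pathway moved. rrf-3, the RNA-dependent RNA polymerase of the 26G-RNA pathway, went from 22.1 and 24.4 RPKM to 50.9 and 54.9 RPKM (log2 fold change 1.15, SE 0.13, adjusted p = 0.0020). rrf-2, another polymerase gene, went from 30.6 and 30.3 to 5.96 and 7.78 RPKM (-2.01, SE 0.17, adjusted p = 9.1e-04). These genes of 1 family thus lay on opposite sides of the input in every library. Of the 10 tested genes in the WAGO list 2 rose and none fell, but rde-1, 1 of the 2, is the Argonaute of exogenous RNAi and no WAGO, and the other, ZK1248.7 (wago-5), was at 1.01 and 0.435 RPKM in the input. Without CSR-1 replicate 2 neither was called (log2 fold changes 0.94 and 0.81), without input replicate 1 the fold change of rde-1 was 0.97, and without input replicate 2 or HRDE-1 replicate 1 or 2 the adjusted p of ZK1248.7 was 0.076, 0.2 or 0.19. The piRNA biogenesis list held 3 rises among 24 tested genes, of which F21A3.5 (prde-1), needed to transcribe piRNA precursors, went from 23.9 and 28.1 to 62.6 and 71.2 RPKM. It also held 2 falls, of which K10C8.1 (parn-1), the enzyme that trims piRNA 3' ends, went from 193 and 214 to 57.2 and 68.0 RPKM.

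The Dicer, ERI and RDE list held the most falls of these lists, with 6 of 22 genes lower and 2 higher (1 higher without either CSR-1 library). Its lower share of 27.3% was still under the 36.8% of all tested genes, and its higher share of 9.09% was near their 7.13%. sid-1, for the channel that imports double-stranded RNA, had 165 and 180 RPKM in the input and 41.6 and 47.0 RPKM in CSR-1 sRIP (log2 fold change -1.94, SE 0.15, adjusted p = 7.2e-04). B0564.11 (rde-11), which acts in amplifying exogenous RNAi, went from 280.1 and 285 to 59.3 and 76.2 RPKM. C41D11.1 (eri-6), a helicase gene of the ERI pathway, went from 84.6 and 96.9 to 15.3 and 20.7 RPKM. For all 3, each CSR-1 library was far below each input library. The list's median of -0.22 became 0.24 with library medians centred, so a direction for the list as a whole is not given.

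**Figure D4:**
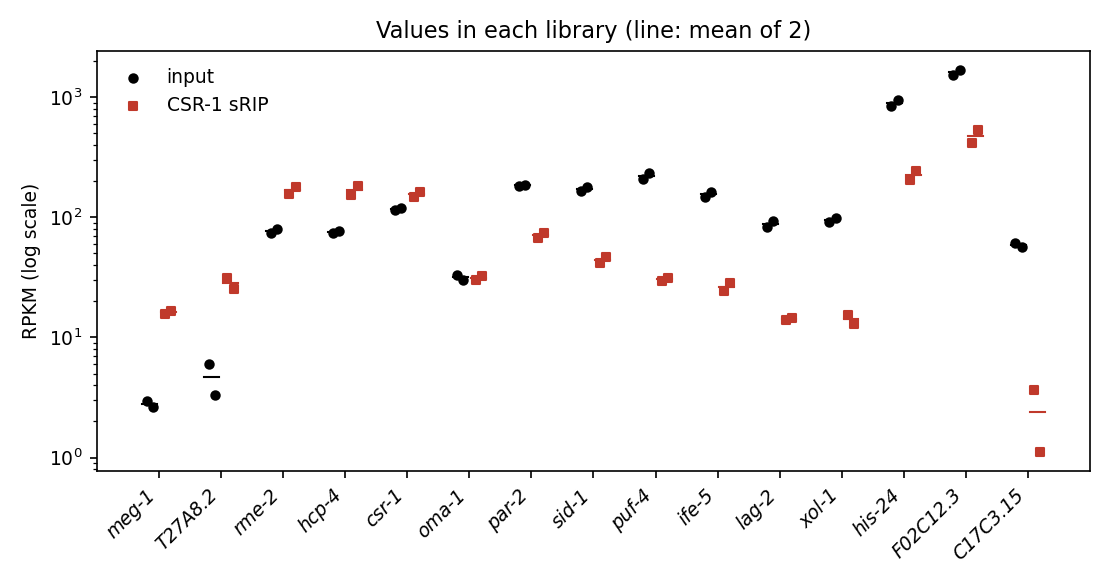
RPKM (log scale) of 15 genes in each of the 2 input libraries (black circles) and each of the 2 CSR-1 sRIP libraries (red squares), with a line at the mean of each pair. meg-1, T27A8.2, rme-2 and hcp-4 are higher in CSR-1 sRIP, csr-1 and oma-1 are not called, and the 9 genes from par-2 to C17C3.15 are lower with no overlap.

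Single members fell in lists whose median lay above 0. In these 31 lists 49 of 828 tested genes fell (5.92%) and 113 rose (13.6%), against 36.8% and 7.13% of all genes. The lists were taken by their own medians, so these shares are a description. The 49 had a median log2 fold change of -1.69, and their median input level of 32.1 RPKM was close to the 30.6 RPKM of the other 779. 12 of the 49 were at 100 RPKM or more in the input, against 42 of the others, and 7 of the 49 against 19 of the others were X-linked. puf-4, named for the PUF family of mRNA regulators, is annotated as a pseudogene. It had 208 and 232 RPKM in the input and 29.7 and 31.2 RPKM in CSR-1 sRIP (log2 fold change -2.81, SE 0.13, adjusted p = 3.0e-04). ife-5, for a cap-binding eIF4E isoform, went from 149 and 162 to 24.3 and 28.4 RPKM (-2.52, SE 0.14). Both lost most of their input signal in each CSR-1 library.

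The other deep losses in these lists came from unlike functions. lag-2, for the Delta-like ligand that the distal tip cell shows to germline stem cells, went from 82.8 and 92.4 to 14.1 and 14.7 RPKM. par-2, for a RING protein of the posterior cortex of the zygote, went from 184 and 186 to 66.9 and 74.3 RPKM (log2 fold change -1.38), and was not called with library medians centred (-0.91). ZC123.4, annotated as cdk-14, a cyclin-dependent kinase gene, went from 90.1 and 102 to 10.7 and 12.4 RPKM. iff-2, for the translation factor eIF5A, went from 326 and 331 to 64.0 and 69.0 RPKM. klp-11, a kinesin-II motor gene, went from 197 and 179 to 34.0 and 35.9 RPKM. dnj-24, a DnaJ co-chaperone gene, went from 185 and 195 to 31.0 and 38.3 RPKM. hpl-1, 1 of the HP1 genes of heterochromatin, went from 104 and 102 to 20.7 and 20.8 RPKM. The sex determination list, with a median of -0.26, also held falls. xol-1, the X-linked switch gene of this pathway, went from 90.9 and 98.5 to 15.4 and 12.9 RPKM. Its downstream gene tra-2 went from 26.4 and 28.4 to 11.8 and 10.8 RPKM (log2 fold change -1.21), and was not called with library medians centred (-0.75).

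The losses by family were led by groups of many similar genes. Of 243 tested F-box genes, whose proteins choose targets for ubiquitin ligases, 174 fell (71.6%) and 0 rose, with a median of -1.85. Leaving out a library gave 134 to 178 falls, and 1 rise without either input library or without CSR-1 replicate 1. At an unadjusted p under 0.05, 198 lay below the input and 5 above, and with voom weights 203 were lower and 1 higher. fbxa-11 had 146 and 142 RPKM in the input and 14.7 and 15.4 RPKM in CSR-1 sRIP (log2 fold change -3.18, SE 0.12, adjusted p = 3.0e-04). fbxa-166 went from 55.3 and 60.1 to 4.76 and 4.54 RPKM. The median level of the tested F-box genes was 10.5 RPKM in the input and 1.445 RPKM in CSR-1 sRIP. Of 54 MATH and BATH genes, a neighbouring class of adaptor proteins, 40 fell and 0 rose (median -1.61). bath-24 went from 451 and 475 RPKM to 67.6 and 72.0 RPKM, and math-31 from 64.6 and 79.2 to 5.67 and 6.31 RPKM. Of the MATH and BATH genes 4 lay above the input at an unadjusted p under 0.05, and with voom weights 44 were lower and 0 higher. By symbol class, the fbxb, math, fbxa and bath genes were lower in 76 of 96, 18 of 23, 79 of 106 and 22 of 31 cases.

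Sensory, receptor and detoxification families were lower too. Of 131 tested chemoreceptor genes, out of 1343 in the table, 83 fell (63.4%, against 36.8% of all tested genes) and 0 rose (median -1.28). Their median level was 1.72 RPKM in the input and 0.205 RPKM in CSR-1 sRIP, and 38 had no CSR-1 read. Any that passed the filter through the input alone had to lie below it, and their number is not given. Of the same 131 genes 0 lay above the input at an unadjusted p under 0.05, and with voom weights 112 were lower and 0 higher. srt-43 had 217 and 229 RPKM in the input and 24.8 and 35.8 RPKM in CSR-1 sRIP (log2 fold change -2.86, SE 0.24, adjusted p = 8.5e-04). srsx-25 had 11.4 and 10.7 RPKM in the input, from 29 and 21 reads, and no read in either CSR-1 library. Against a floor of 3 reads over the group it was at least 27.4-fold lower. Of 129 nuclear hormone receptor genes 69 fell and 5 rose (median -1.11), and without CSR-1 replicate 1 or 2 the rises numbered 1. nhr-64 went from 122 and 126 to 12.9 and 16.5 RPKM, and nhr-4, among the rises, from 6.31 and 6.49 to 22.1 and 21.8 RPKM, which was not called without CSR-1 replicate 1 (adjusted p 0.057) or 2 (0.058). Among 53 C-type lectin genes 31 fell (20 without either CSR-1 library), and among 61 genes for glucuronosyltransferases, cytochromes P450 and glutathione transferases 35 fell and 1 rose. gst-15 and gst-30 had the same input values of 20.6 and 22.2 RPKM, while their CSR-1 values differed, with 1.25 and 1.04 RPKM against 0.936 and 4.17 RPKM. Whether they share reads was not tested.

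Sperm genes were mostly lower. Of 45 tested major sperm protein and small sperm genes 40 fell and 0 rose (median -1.80), and 30 had no CSR-1 read. The list held 111 genes in all, and the median input of those tested was 2.56 RPKM. Any that passed the filter through the input alone had to fall. nspd-1, for a small sperm peptide, had 6.43 and 9.73 RPKM in the input from 6 and 7 reads and none in CSR-1 sRIP, at least 7.35-fold lower. msp-36 went from 8.11 and 8.41 to 0.443 and 0.740 RPKM. The summed RPKM of this list was 173 and 155 in the input and 11.5 and 6.17 in CSR-1 sRIP, so it was scarce on both sides. In the sperm, collagen and neuronal lists 0 genes lay above the input at an unadjusted p under 0.05, and with voom weights 42, 28 and 12 were lower and 0 higher. Of 13 spermatogenesis-defective genes 9 fell, among them spe-41, a sperm calcium channel gene, from 38.7 and 40.1 to 4.36 and 5.65 RPKM. Major sperm protein genes are near-identical copies, and how reads shared between them were counted is not given in the sources used here.

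Neuronal and cuticle genes followed the same direction. Of 15 tested neuronal genes 10 fell and 0 rose (median -1.18). unc-10, for the presynaptic scaffold RIM, had 113 and 117 RPKM in the input and 22.3 and 23.4 RPKM in CSR-1 sRIP. ZC416.8a, annotated as cha-1 for choline acetyltransferase, went from 72.2 and 68.7 to 7.56 and 7.87 RPKM (log2 fold change -3.03, SE 0.10, adjusted p = 3.0e-04). Of 34 collagen genes tested out of 178, 23 fell and 0 rose (median -1.72), with col-111 going from 159 and 164 to 21.9 and 24.6 RPKM. Intestinal and muscle genes differed from these in having few limma calls, with 4 of 22 (18.2%) and 4 of 17 (23.5%) lower and 0 and 1 higher. Of all tested genes 36.8% were lower. At an unadjusted p under 0.05, 6 and 1 lay above the input and 6 and 5 below. With voom weights 5 and 1 were higher and 7 and 5 lower. The medians of these 2 lists, -0.28 each, became 0.18 and 0.19 with library medians centred. Without CSR-1 replicate 1, 2 of the intestinal genes were lower. Small RNA against a gene does not measure its mRNA. Both sides came from whole animals of 1 strain, so these falls compare precipitate with input and do not measure cell numbers. Which cells the small RNA came from is not known.

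Histone genes were lower or not called. Of 77 tested histone genes 35 fell (45.5%) and 0 rose (median -0.96), against 36.8% and 7.13% of all tested genes. With either HRDE-1 library left out, 21 fell. At an unadjusted p under 0.05, 47 lay below the input and 2 above, and with voom weights 36 were lower and 0 higher. The linker histone gene his-24 had 843 and 950 RPKM in the input and 205 and 243 RPKM in CSR-1 sRIP (log2 fold change -2.0, SE 0.29, adjusted p = 0.0041). hil-3, for an H1-like histone, went from 419 and 445 to 89.6 and 96.2 RPKM. his-24 was not called without HRDE-1 replicate 1 (adjusted p 0.084) or 2 (0.085). Of the 77 genes 30 had exactly the values of another histone gene in every library, so they are not separate measurements.

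The lower genes with the most small RNA were known by sequence names. F02C12.3 on X had 1533 and 1687 RPKM in the input and 417 and 534 RPKM in CSR-1 sRIP (log2 fold change -1.77, SE 0.46, adjusted p = 0.023). It was not called without CSR-1 replicate 1 (adjusted p 0.15) or 2 (0.1) or HRDE-1 replicate 1 or 2 (0.4 each), or with library medians centred (0.29). F37D6.3 on chromosome I and B0250.8 on V had 1249 and 1471 and 1207 and 1380 RPKM in the input, and 255 and 314 and 247 and 315 RPKM in CSR-1 sRIP. T26E3.7, F55A3.6 and W03H9.3 had close values again, from 1077 RPKM (W03H9.3, input replicate 1) to 1364 RPKM (T26E3.7, input replicate 2) in the input. Whether these 5 genes hold copies of 1 sequence was not tested. Without HRDE-1 replicate 1 the adjusted p of F37D6.3, B0250.8, T26E3.7, F55A3.6 and W03H9.3 was 0.14, 0.15, 0.13, 0.11 and 0.13. Over all genes, those listed under a sequence name or another form were lower in 2770 of 6896 cases (40.2%). Those listed under a symbol of letters and a number were lower in 1249 of 4012 (31.1%). The split is by the listed name, and genes such as C16C10.3 (hrde-1) have a symbol as well. Pseudogenes were lower in 218 of 341 cases (63.9%) and higher in 11, and protein-coding genes were lower in 3660 of 10252 (35.7%).

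The deepest falls among genes with at least 10 RPKM in the input left almost nothing in the precipitate. C17C3.15 on chromosome II had 61.0 and 56.9 RPKM in the input and 3.67 and 1.11 RPKM in CSR-1 sRIP (log2 fold change -4.26, SE 0.47, adjusted p = 0.0018). It was not called without HRDE-1 replicate 1 (adjusted p 0.056) or 2 (0.055). F21D9.8 on V went from 116 and 102 to 6.36 and 8.25 RPKM, and F20B4.4 from 42.3 and 60.1 to 2.85 and 2.11 RPKM. The input and CSR-1 values of these genes were widely separated.

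Some genes with abundant small RNA were called in neither direction. E01G4.5 on chromosome II had 390 and 398 RPKM in the input and 354 and 424 RPKM in CSR-1 sRIP, which overlapped (log2 fold change -0.03, adjusted p = 0.91). T07A9.14 on IV had 260 and 261 RPKM in the input and 296 and 312 RPKM in CSR-1 sRIP (0.22, adjusted p = 0.28). pisy-1, for the enzyme that makes phosphatidylinositol, had 246 and 283 RPKM in the input and 293 and 308 RPKM in CSR-1 sRIP (0.18, adjusted p = 0.34). E01G4.7, a neighbour of E01G4.5, had 617 and 634 RPKM in the input and 295 and 376 RPKM in CSR-1 sRIP, a log2 fold change of -0.91 (adjusted p = 0.045) that was under the size required, although both CSR-1 values were below both input values.

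The X chromosome stood apart from the autosomes by level. Over all levels 512 of 1171 tested X-linked genes were lower (43.7%) and 104 higher (8.88%), around a median of -0.86. On the autosomes the lower share ran from 31.6% on III to 41.5% on V, and the higher share from 5.98% on V to 7.87% on III. X-linked genes had little small RNA, with a median input of 3.57 RPKM among those tested, against 12.01 to 20.9 RPKM on the autosomes. At 10 to 100 RPKM, 176 of 251 X-linked genes were lower (70.1%), against 1247 of 5391 autosomal genes (23.1%), and the medians were -1.93 and 0.23. At 1 to 10 RPKM the order was the opposite, with 242 of 657 X-linked genes lower (36.8%) against 1528 of 2479 (61.6%), and 84 X-linked genes higher (12.8%) against 71 (2.86%).

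**Figure D5:**
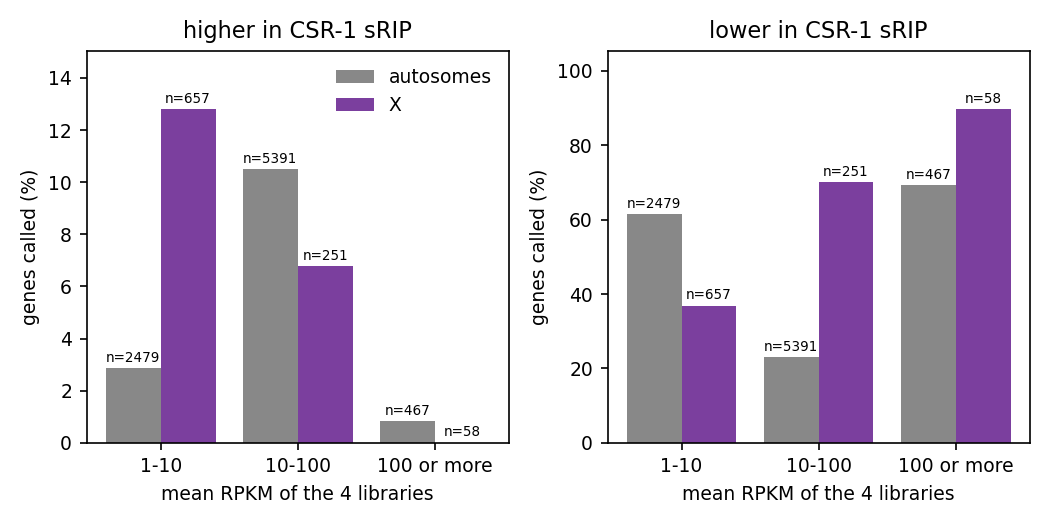
Share of tested genes called higher (left) and lower (right) in CSR-1 sRIP, on the autosomes (grey) and on X (purple), by the mean RPKM of the 4 libraries, with the number of genes above each bar. On X the higher calls lie mostly at 1 to 10 RPKM (12.8%). At 10 to 100 RPKM 70.1% of X-linked and 23.1% of autosomal genes are lower, and at 100 RPKM or more 89.7% and 69.4%.

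Among the 346 X-linked genes with an input mean of at least 10 RPKM the fold changes had 1 peak in place of 2. This cut is on the input, the denominator of the fold change, and kept 346 of the 1171 tested X-linked genes. It left out the 84 of 104 higher X-linked genes that lay at a mean of 1 to 10 RPKM. The missing upper peak thus depends in part on the cut. The fullest interval was from -2.5 to -2, with 118 genes (34.1%), and the interval from 0.5 to 1, the fullest on the autosomes with 1455 of 6007 genes (24.2%), held 8 (2.31%). At 100 RPKM or more 52 of 58 X-linked genes were lower and 0 higher, against 324 and 4 of 467 on the autosomes. Summed over the chromosome, X-linked small RNA was 34220 and 35760 RPKM in the input and 10330 and 11210 RPKM in CSR-1 sRIP. The difference between X and autosomes was not tested, since genes are not replicates.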

How the data were processed

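Ligation-based small RNA libraries of whole young adults were compared, 2 of CSR-1 sRIP with 2 of input. The deposited values are RPKM per gene model, calculated by the authors. The submitters' processing notes list Bowtie 1.2.3. The build, annotation, strand, read lengths and handling of multimapping reads are not given in the sources, so antisense, overlapping and near-identical genes are uncertain. Of 20938 models, the one with the highest mean RPKM per symbol was kept. Names, chromosomes and biotypes come from WBcel235 by symbol or sequence name (598 models had no match). A second deposited table of the other 45 samples has 45 value columns whose library codes could not be matched to samples through the labels, and was not used. Library totals and reads were deduced from the RPKM: all 80624 values above 0 came out whole (100%, tolerance 1e-06 of the value), with 360 model lengths raised after values under 0.6 of the annotated length. Depths, floors and replicate checks use these reads and cover counting error only, since reads are not independent molecules. Printed RPKM do not use them.

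Genes with at least 1 RPKM in 2 or more of the 6 libraries were fitted with limma 3.58.1 in R 4.3.3 on log2(RPKM + 1), with a prior variance that follows the mean level (2.8 prior degrees of freedom), 1 mean for each of 3 groups (input, CSR-1, HRDE-1) and two-sided tests with Benjamini-Hochberg adjustment over all genes tested. Fold changes on this scale understate the change of low genes. The input pair entered as 1 sample, as planned where a chi-square test finds no difference, which left 5 samples with 2 residual degrees of freedom. Its spread was taken to be that of the CSR-1 and HRDE-1 pairs. Separate cultures are not mentioned in the labels, so p-values measure the spread between these libraries, which may be technical. The fit was checked on simulated data. Lists are described by counts and medians beside all genes and were not tested. Named genes were the 10 largest rises and 10 largest falls with no overlap and a mean of at least 10 RPKM in the higher group, the genes with the highest mean RPKM (10 higher, 10 lower, 5 not called), the largest rise, largest fall and highest level among called members of each list, csr-1, hrde-1 and oma-1, and 8 symbol classes in each direction. Further list members named in the text were chosen after their values were seen. The lists and the comparison itself were chosen with earlier results of these data known. No sequences are shown, as no sequence table was used here. Python 3.11.15, pandas 2.3.3 and matplotlib 3.10.9 were used for counts and figures.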

Additional observations from a re-analysis of the deposited data

How the results depend on the processing

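None of the 137 called named genes changed sign under a setting run. Of the 8 not called, oma-1, E01G4.5 and Y46H3C.7 went from -0.01, -0.03 and -0.42 to 0.45, 0.44 and 0.04 with library medians centred. The number of higher genes was 343 with a pseudocount of 5, 2540 with library medians centred, 491 without CSR-1 sRIP replicate 2 and 2587 with no minimum fold change, against 778, and the number of lower genes was 2350 with a pseudocount of 5, against 4019. With 1 library left out, 491 to 860 genes were higher and 3183 to 4029 lower. At 100 RPKM or more, 0.74% of genes were higher and 72.41% lower, and 0% were higher with the level taken from HRDE-1 sRIP. At 10 to 100 RPKM, 10.4% were higher and 25.6% lower. In the other settings (2 input samples, 4 libraries only, a pseudocount of 0.1, no filter, a mean of at least 5 RPKM, the median ratio to input set to 1, voom weights on deduced reads, every gene model) both counts stayed within 1.5 times. With 2 input samples 824 genes were higher and 4064 lower, and with the replicate number as a block 826 and 4068. The correlation of same-numbered deviations was 0.0043 between input and CSR-1 sRIP and 0.033 between CSR-1 and HRDE-1 sRIP, under the 0.1 required to treat them as pairs. Same-numbered libraries also share the first part of the library code in their titles, and the labels do not say what it marks. The block changed no call of a named gene. Of 792 called list members and named genes, 340 lost the call in at least 1 fit without a library (81 of 146 higher and 259 of 646 lower). Leaving out a CSR-1 or HRDE-1 library left 1 residual degree of freedom in place of 2, and leaving out an input library kept 2. Of 1598 list counts under the alternatives, 293 moved by over 1.5 times. Depth limits the genes with few reads, and the cause of the other changes was not tested.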

Other observations

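Smaller symbol classes, some of which overlap the lists above, also differed in their calls. Among classes with 10 or more tested genes the highest share of rises was in the cdc genes of the cell cycle. Of these, 3 of 11 were higher and 0 lower by limma (median log2 fold change 0.82). The dpy genes came next, with 3 of 13 higher and 4 lower. This class is named for body shape and includes dpy-26 and dpy-21 of the dosage compensation list. The alh genes had 2 of 10 higher and 2 lower (median -0.34), and the rgs genes 2 of 10 higher and 5 lower (median -0.93). The cyn genes for cyclophilins had 3 of 15 higher and 2 lower, and the mdt genes for Mediator subunits 3 of 17 higher and 2 lower (median 0.63). The atg genes of autophagy had 2 of 12 higher and 0 lower, and the rpn genes of the proteasome 2 of 11 higher and 0 lower. Of the nas genes for astacin proteases 8 of 11 were lower and 0 higher (median -2.16), as were 9 of 11 str and 16 of 22 srh chemoreceptor genes and 22 of 24 msp genes. These classes were picked by their own shares, so their values are a description.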
